A study of Mus musculus with 9 samples.

Results

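Foxp3 and 9 transcription factors that control it or act with it were followed across induced regulatory T cells of Glut1 transgenic and wild-type mice. They were chosen by gene symbol from the table of read counts, as Foxp3 together with Ikaros-family factors (Ikzf1, Ikzf2 and Ikzf4), forkhead factors (Foxo1, Foxo3 and Foxp1), the Runx1 and Cbfb pair, and the genome organiser Satb1. These are 10 of the 28111 genes in the table, and all 10 were among the 14817 genes with enough counts to be tested. The 9 mRNA sequencing libraries, all from C57BL/6J mice, comprised 4 from mice of the Glut1 transgenic genotype (Glut1Tg) and 5 from WT (wild-type) mice. The labels also place each library in a mouse group: mouse group 2 held Glut1Tg replicate 1 and WT replicates 2, 4 and 5, and mouse group 1 held Glut1Tg replicates 2, 3 and 4 and WT replicates 1 and 3. The sources used here do not say what sets the mouse groups apart, which promoter drives the transgene, how the cells were induced or how old the animals were. Whether each library is a separate animal or culture is also unstated, so the p-values reflect the spread among libraries, part of which could be technical.

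Foxp3 is the forkhead factor that defines regulatory T cells, and it binds chromatin together with partner factors rather than alone. Runx1 and its non-DNA-binding subunit Cbfb, together called core binding factor, help to keep Foxp3 transcribed and bind the Foxp3 protein. Foxo1 and Foxo3 activate Foxp3 transcription and are held out of the nucleus when the kinase AKT is active. Ikzf2 (Helios) and Ikzf4 (Eos) are zinc finger factors enriched in regulatory T cells, Ikzf1 (Ikaros) is the founding member of their family, and Satb1 is a chromatin organiser that Foxp3 keeps low in mature regulatory T cells.

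The promoter sequences of Foxp3, of the 3 factors that differed between mouse groups (Foxo1, Cbfb and Satb1) and of Runx1 are shown because the values below turn on these genes. The windows are RefSeq's on GRCm38.p6 and run from 250 bases before to 50 bases after an annotated start, 5′ to 3′ on the gene's strand. The first window listed for each gene is printed. Of the 10 factors, 8 matched, with 17 windows in all; Ikzf2 and Ikzf4 had no entry. Capitals mark a Runx motif (TGTGGTT or, on the other strand, AACCACA) or an Ikaros motif (TGGGAA or TTCCCA).
Foxp3, chrX:7579426-7579725, plus strand: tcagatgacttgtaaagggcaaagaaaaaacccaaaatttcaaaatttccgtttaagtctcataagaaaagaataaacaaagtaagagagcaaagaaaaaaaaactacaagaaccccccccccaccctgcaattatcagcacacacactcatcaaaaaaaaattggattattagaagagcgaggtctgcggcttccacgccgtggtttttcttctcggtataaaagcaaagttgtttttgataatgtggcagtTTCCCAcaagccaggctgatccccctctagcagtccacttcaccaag
Foxo1, chr3:52268087-52268386, plus strand: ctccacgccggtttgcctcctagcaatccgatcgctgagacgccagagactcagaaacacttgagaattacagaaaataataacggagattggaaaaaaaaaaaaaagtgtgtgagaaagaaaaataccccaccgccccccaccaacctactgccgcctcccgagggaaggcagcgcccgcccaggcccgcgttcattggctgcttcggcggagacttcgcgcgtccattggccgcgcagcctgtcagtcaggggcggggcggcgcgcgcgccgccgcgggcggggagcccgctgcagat
Cbfb, chr8:105170424-105170723, plus strand: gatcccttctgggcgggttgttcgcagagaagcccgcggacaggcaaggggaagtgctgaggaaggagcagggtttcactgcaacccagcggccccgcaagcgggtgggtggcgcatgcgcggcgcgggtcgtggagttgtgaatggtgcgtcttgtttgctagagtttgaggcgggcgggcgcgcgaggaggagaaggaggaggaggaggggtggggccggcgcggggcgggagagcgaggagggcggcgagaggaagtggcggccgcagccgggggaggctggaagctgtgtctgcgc
Satb1, chr17:51833241-51833540, minus strand: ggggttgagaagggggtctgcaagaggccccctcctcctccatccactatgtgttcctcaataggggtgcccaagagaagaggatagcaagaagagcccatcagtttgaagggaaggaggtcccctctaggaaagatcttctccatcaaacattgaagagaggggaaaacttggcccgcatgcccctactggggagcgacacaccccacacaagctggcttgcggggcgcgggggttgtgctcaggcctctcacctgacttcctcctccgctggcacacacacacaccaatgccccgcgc
Runx1, chr16:92826025-92826324, minus strand: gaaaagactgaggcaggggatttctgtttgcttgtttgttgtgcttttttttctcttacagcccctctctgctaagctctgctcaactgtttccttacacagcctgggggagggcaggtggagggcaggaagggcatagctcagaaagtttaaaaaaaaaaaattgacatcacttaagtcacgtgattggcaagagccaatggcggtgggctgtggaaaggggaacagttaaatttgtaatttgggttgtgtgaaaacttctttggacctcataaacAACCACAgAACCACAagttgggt

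The first Foxp3 window was poor in G and C, at 40.7% with 6 CpG dinucleotides, against a median of 53.0% and 7 over 32544 windows of the same length. It held 1 Ikaros motif, at bases 254 to 259 of the window, just after the annotated start, a motif found in 25.4% of all windows. The second Foxp3 window, chrX:7580233-7580532, had 47.7% G and C and 8 CpG and held none of the motifs searched. The first Runx1 window held 2 Runx motifs, at bases 278 to 284 and 286 to 292, where 5.29% of all windows held at least 1, and the second held none of the motifs searched. The Foxo1 window (61.3% G and C, 31 CpG) and the Cbfb window (69.7%, 30 CpG) each held several GC boxes (GGGCGG or CCGCCC), 5 and 4 of them, where 35.9% of all windows held at least 1. Satb1 had 5 windows. The first, printed here, at 59.0% G and C and 8 CpG, held none of the motifs searched, nor did the fourth, while the second (76.7%, 45 CpG) held 3 GC boxes and the third and the fifth each held 1 Ikaros motif. A forkhead motif (GTAAACA or TGTTTAC) was found in 0 of the 17 windows and in 3.66% of all windows. These are letter matches, and they say nothing of binding.

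Total counts were between 20881035 and 31196428 per library. Slc2a1, which encodes Glut1, had 260, 496, 279 and 457 CPM (reads scaled to TMM-adjusted library totals) in Glut1Tg libraries 1 to 4, against 29.7 to 58.7 CPM in WT, a log2 fold change of 2.92 (SE 0.19; edgeR adjusted p = 0.000903). The T cell markers Cd3e, Cd3g, Cd4, Trac and Lck summed to 2354 to 3027 CPM in Glut1Tg and 2747 to 3115 CPM in WT libraries, while the CD8 markers stayed at 7.07 to 9.71 and 8.69 to 10.5 CPM and the B cell markers at 3.37 to 6.39 and 3.33 to 7.02 CPM. NK cell markers summed to at most 1.11 CPM in any library. Several libraries stood apart. Glut1Tg replicate 1 and WT replicate 2 lay away from the rest on the first principal component, which held 50.7% of the variance, and their 6 proliferation genes summed to 4743 and 4668 CPM, against 868 to 2022 CPM in the other 7. Glut1Tg replicate 3 had the highest sums of mast cell and basophil markers (6 genes, 2326 CPM, against 3.61 to 737 CPM in the other 8), of neutrophil and macrophage markers (342 CPM, against 4.50 to 21.5 CPM) and of erythroid and platelet markers (1018 CPM, against 4.12 to 272 CPM), and the lowest T cell marker sum, 2354 CPM. Xist was at 256 and 340 CPM in Glut1Tg replicates 2 and 4 and at most 1.32 CPM in the other 7 libraries. Kdm5d, another sex-linked gene, averaged 20.8 ± 22.7 CPM in Glut1Tg and 65.0 ± 7.22 CPM in WT (SD). Both libraries with high Xist are Glut1Tg libraries of mouse group 1, so sex is unevenly split over genotype and mouse group. The parts that proliferation, other cell types and sex play in the differences below were not tested.

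Foxp3 had the highest level of the 10 factors in every library when CPM were divided by the length of each gene's merged exons. It averaged 163 ± 20.4 CPM per kilobase in Glut1Tg and 214 ± 29.6 in WT (SD, n = 4 and 5). Its exons (ENSMUSG00000039521, chrX:7573644-7595245, plus strand, mm10) add up to 4.58 kb. The nearest factor, Ikzf1, averaged 69.7 ± 14.7 CPM per kilobase in Glut1Tg and 74.5 ± 5.30 CPM per kilobase in WT, and no library of Ikzf1 reached the lowest of Foxp3.

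Below these came Ikzf4, Foxo1, Cbfb, Foxp1, Satb1, Ikzf2, Foxo3 and Runx1, in the order of their WT means. Ikzf4 ranged over 45.3 to 65.3 CPM per kilobase in Glut1Tg and 41.5 to 64.8 in WT, and Foxo1 over 21.8 to 67.9 in Glut1Tg and 29.3 to 65.0 in WT. The WT libraries of Ikzf4 lay below those of Ikzf1, 66.9 to 79.2, while their Glut1Tg libraries overlapped. Ikzf4 and Foxo1 overlapped within each genotype, as did each further pair of neighbours down to Ikzf2 and Foxo3. Runx1, the DNA-binding subunit of core binding factor, was lowest in every library, at 5.42 to 7.52 CPM per kilobase in Glut1Tg and 6.52 to 8.65 in WT. Runx1 did not overlap with Foxo3, its neighbour, at 8.89 to 16.9 in Glut1Tg and 10.1 to 16.8 in WT. In Glut1Tg the lowest libraries of Ikzf2 (6.54) and Satb1 (6.57) did fall within the Runx1 range. Cbfb, the obligate partner of Runx1, averaged 31.3 ± 16.9 CPM per kilobase in Glut1Tg and 33.0 ± 14.5 in WT. With exons of the basic transcript set only, which shortens several of these genes, Foxp1 moved above Cbfb in WT (41.5 and 39.4 CPM per kilobase).

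**Figure D1:**
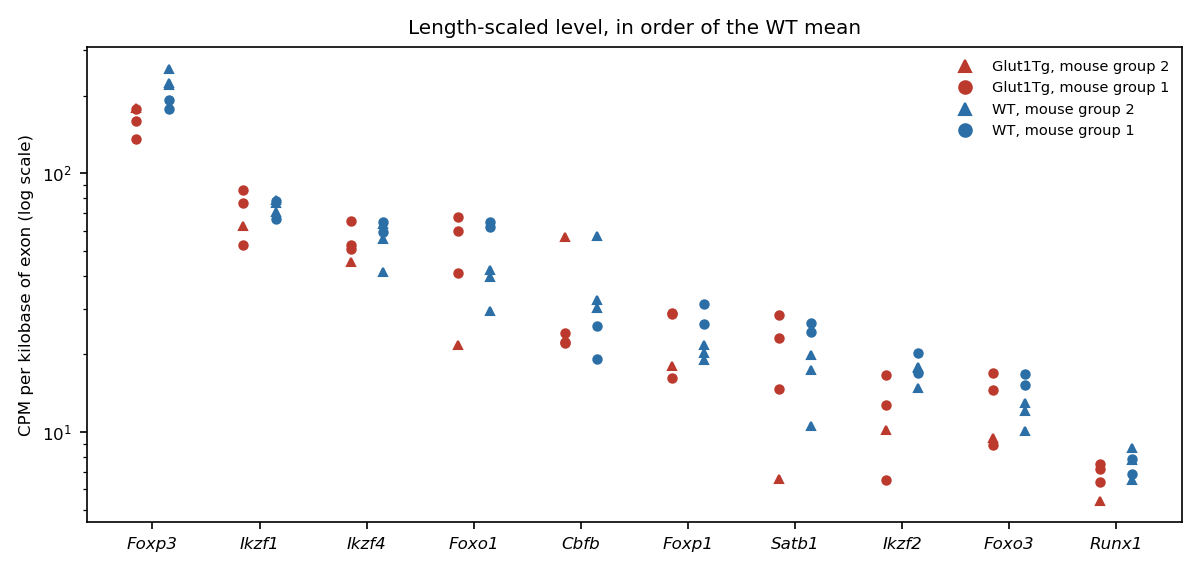
Level of each factor in CPM per kilobase of merged exons (log scale), with Glut1Tg libraries (red) left of WT libraries (blue), triangles for mouse group 2 and circles for mouse group 1. The factors run in the order of their WT mean; Foxp3 lies above the other 9 in every library and Runx1 lies lowest.

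The main comparison of the study is Glut1Tg against WT, which asks whether forced Glut1 expression changes the cells' transcripts. Foxp3 had 822, 733, 621 and 814 CPM in Glut1Tg replicates 1 to 4, against 814, 1002, 882, 1025 and 1164 CPM in WT replicates 1 to 5. The Glut1Tg libraries lay at the low end, with Glut1Tg replicate 3 lowest of all, and only Glut1Tg replicate 1 passed the lowest WT library, which Glut1Tg replicate 4 nearly equalled. Mean levels were 747 ± 93.3 CPM in Glut1Tg and 977 ± 135 CPM in WT (SD, n = 4 and 5). With mouse group in the model, the Foxp3 fold was 0.821 (95% interval 0.664 to 1.01), on the log2 scale -0.28 with SE 0.14 (edgeR adjusted p = 0.681, unadjusted 0.0640). The exact two-sided permutation test over all 126 assignments of the 2 genotypes, which takes no account of mouse group, gave p = 0.0238 for the difference in mean log2 CPM of -0.38, and leaving out 1 library at a time moved this p over 0.0286 to 0.0571. Without Glut1Tg replicate 3, the library with 2326 CPM of mast cell and basophil markers, the difference was -0.30 (exact permutation p = 0.0536). In these bulk libraries, fewer Foxp3-expressing cells and less Foxp3 RNA per cell cannot be told apart.

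Set against Lck, a T cell kinase gene, Foxp3 stood at ratios of 0.984, 0.784, 0.812 and 0.853 in Glut1Tg replicates 1 to 4, against 0.906, 1.14, 1.03, 1.02 and 1.26 in WT replicates 1 to 5. The overlap was again small, with Glut1Tg replicate 1 above WT replicate 1. This ratio was chosen after values had been seen and is given as a description. The Foxp3 exons share 853 bases with Flicr, a noncoding RNA gene on the same strand that has no row of that name among the counts. A strand setting would not tell Flicr reads in these bases from Foxp3 reads. On the opposite strand they share 590 bases with Ccdc22, 373 with Gm36995 and 266 with Ppp1r3f. The sources used here do not state the strand setting of the counting, so how reads in those overlaps were counted is unknown.

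Among the Ikaros-family factors, Ikzf2 (ENSMUSG00000025997, chr1:69531214-69687245, minus strand), which marks a large share of regulatory T cells, had the lowest fitted fold of the 10. It had 118, 148, 75.9 and 192 CPM in Glut1Tg replicates 1 to 4, against 234, 205, 197, 172 and 208 CPM in WT replicates 1 to 5. Only Glut1Tg replicate 4 reached the WT range, where it passed WT replicate 4, and Glut1Tg replicate 3 was lowest. The Ikzf2 fold was 0.628 (95% interval 0.423 to 0.933), on the log2 scale -0.67 with SE 0.25 (edgeR adjusted p = 0.681, unadjusted 0.0259). The exact two-sided permutation test without mouse group gave p = 0.0159 for Ikzf2, not adjusted over the 10 factors. For the factors other than Ikzf2 and Foxp3, the same permutation test gave p from 0.175 (Runx1) to 0.921 (Foxo1). Without Glut1Tg replicate 3 the Ikzf2 log2 fold change was -0.51 (edgeR adjusted p = 0.794).

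Ikzf4, a corepressor that Foxp3 recruits, had 272, 317, 305 and 392 CPM in Glut1Tg replicates 1 to 4, against 388, 333, 355, 249 and 381 CPM in WT replicates 1 to 5. Ikzf1, which is expressed throughout the lymphoid lineage, had 363, 443, 306 and 498 CPM in Glut1Tg, against 454, 458, 387, 411 and 444 CPM in WT. For both, the Glut1Tg libraries covered the whole or nearly the whole WT range. The log2 fold changes were -0.18 ± 0.16 for Ikzf4 and -0.11 ± 0.17 for Ikzf1 (SE; edgeR adjusted p = 0.727 and 0.839).

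The forkhead factors varied widely within each genotype. Foxo1 averaged 414 ± 179 CPM in Glut1Tg and 413 ± 132 CPM in WT, and Foxo3 94.1 ± 29.4 and 101.5 ± 19.8 CPM (SD, n = 4 and 5). Foxp1, which keeps naive T cells quiescent and shares genomic sites with Foxp3, averaged 316 ± 93.3 CPM in Glut1Tg and 325 ± 68.8 CPM in WT. With mouse group in the model the log2 fold changes were -0.39 ± 0.22 for Foxo1, -0.27 ± 0.20 for Foxo3 and -0.20 ± 0.19 for Foxp1 (SE; edgeR adjusted p = 0.681, 0.684 and 0.736). The Foxo1 value rests on that term, for without it the log2 fold change was 0.00097.

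Runx1 had 65.2, 90.4, 77.3 and 86.7 CPM in Glut1Tg replicates 1 to 4, against 94.8, 78.4, 82.5, 93.8 and 104 CPM in WT replicates 1 to 5, and the genotypes overlapped (log2 fold change -0.23 ± 0.15, SE; edgeR adjusted p = 0.681). Cbfb was the only factor with a positive log2 fold change, 0.22 ± 0.22 (SE; edgeR adjusted p = 0.750), and this sign turned without Glut1Tg replicate 1 (-0.0032). Satb1 averaged 345 ± 182 CPM in Glut1Tg and 376 ± 119 CPM in WT, with a log2 fold change of -0.60 ± 0.32 (SE; edgeR adjusted p = 0.681). The size of the Satb1 value rests on the mouse group term and on Glut1Tg replicate 1. It was -0.12 without that term and -0.23 without that library.

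Across the 10 factors, 0 passed the edgeR test for genotype, where 0.00675% of all genes passed, and 0 had genotypes that did not overlap, a state seen in 1.59% of all genes. DESeq2 and limma-voom also called 0 of the 10. Ikzf2 alone had an unadjusted edgeR p under 0.05, which 6% of all genes had (1.5% lower and 4.5% higher). In DESeq2, Foxp3 did as well. The fitted log2 fold change was negative for 9 of the 10 factors, against 47.6% of all genes, with a median of -0.25 against 0.02 over all genes. Without the mouse group term it was negative for 9 as well (all but Foxo1), with a median of -0.10 against 0.05 over all genes. The Glut1Tg libraries were not alike in this. All 10 factors lay below their own means over the libraries in Glut1Tg replicate 3, and all but Cbfb did in Glut1Tg replicate 1. In Glut1Tg replicates 2 and 4 most factors lay above their means. The count of signs takes no account of this, was not tested and is a description only. No factor passed in any of the 18 alternatives tried.

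**Figure D2:**
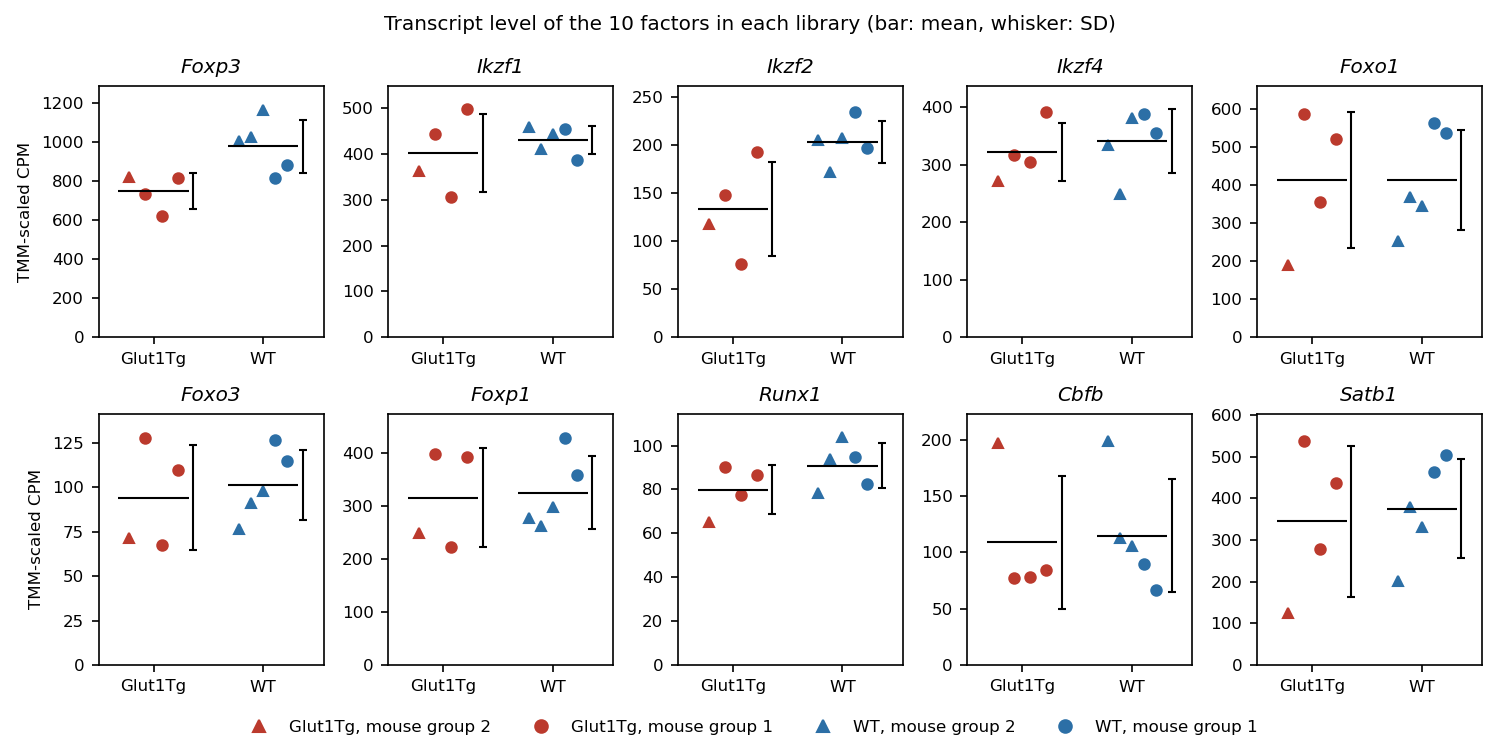
Level of each factor in TMM-scaled CPM in the 4 Glut1Tg (red, left) and 5 WT libraries (blue, right), with triangles for mouse group 2 and circles for mouse group 1; bars are means and whiskers SD. The genotypes overlap for all 10 factors, and Foxo1, Satb1 and Cbfb separate more by symbol than by colour.

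More genes differed between the mouse groups than between the genotypes. Here 3 of the 10 factors passed the edgeR test, with 24.1% of all genes passing (13.1% higher and 11% lower in mouse group 2). Foxo1 and Satb1 were lower and Cbfb was higher in mouse group 2. The share of factors that passed is near that of all genes, and the median log2 fold change of the 10 was -0.22 against -0.01 over all genes.

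Foxo1 (ENSMUSG00000044167, chr3:52268336-52353221, plus strand), the main Foxo factor of T cells, had 189, 254, 368 and 345 CPM in mouse group 2 (Glut1Tg replicate 1, then WT replicates 2, 4 and 5), against 588, 357, 521, 563 and 537 CPM in mouse group 1 (Glut1Tg replicates 2, 3 and 4, then WT replicates 1 and 3). All of mouse group 2 was low, and the groups touched only where WT replicate 4 passed Glut1Tg replicate 3. The fold was 0.502 (95% interval 0.358 to 0.704), on the log2 scale -0.99 with SE 0.22 (edgeR adjusted p = 0.0129). Of its 8.67 kb of exon, 674 bases lie opposite an antisense gene, Gm20402, that was not analysed here.

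Satb1 (ENSMUSG00000023927, chr17:51736187-51833290, minus strand) had 125, 201, 379 and 331 CPM in the mouse group 2 libraries in the same order, against 538, 278, 438, 464 and 503 CPM in mouse group 1. Glut1Tg replicate 1 and WT replicate 2 were lowest and Glut1Tg replicate 3 fell within the range of mouse group 2. The fold was 0.480 (95% interval 0.292 to 0.790), on the log2 scale -1.06 with SE 0.32 (edgeR adjusted p = 0.0406). Satb1 varied most among the 10 factors, with 4.31-fold between its highest and lowest library.

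Cbfb (ENSMUSG00000031885, chr8:105170674-105217989, plus strand) had 197, 199, 113 and 105 CPM in mouse group 2, against 77.1, 77.6, 83.9, 89.4 and 66.9 CPM in mouse group 1. It was the only factor whose mouse groups did not overlap, as they did not for 21.8% of all genes. The fold was 2.03 (95% interval 1.44 to 2.85), on the log2 scale 1.02 with SE 0.22 (edgeR adjusted p = 0.0119). Its DNA-binding partner Runx1 averaged 85.4 ± 17.1 CPM in mouse group 2 and 86.3 ± 6.78 CPM in mouse group 1 (SD, n = 4 and 5), with a log2 fold change of -0.11 ± 0.15 (SE; edgeR adjusted p = 0.627).

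All 3 calls leaned on Glut1Tg replicate 1, the only Glut1Tg library of mouse group 2. Without it the log2 fold changes were -0.77 for Foxo1, -0.67 for Satb1 and 0.82 for Cbfb (edgeR adjusted p = 0.125, 0.279 and 0.130), and 668 genes were called in all. Among WT libraries alone they were -0.76, -0.66 and 0.83 (edgeR adjusted p = 0.0890, 0.212 and 0.175). Without the 2 libraries with high proliferation gene sums, Glut1Tg replicate 1 and WT replicate 2, they were -0.62, -0.43 and 0.49 (edgeR adjusted p = 0.206, 0.450 and 0.165). Each kept its direction in these fits. The Satb1 call was also lost when Glut1Tg replicate 2 or 4 or WT replicate 1, 2 or 3 was left out (edgeR adjusted p of 0.0548 to 0.0947).

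Foxp3 itself had 822, 1002, 1025 and 1164 CPM in mouse group 2, against 733, 621, 814, 814 and 882 CPM in mouse group 1, with WT replicate 3 of mouse group 1 above Glut1Tg replicate 1. Its log2 fold change of 0.27 ± 0.13 (SE) did not pass (edgeR adjusted p = 0.166). Foxo3 and Foxp1 also did not pass, at -0.47 ± 0.20 and -0.48 ± 0.19 (SE; edgeR adjusted p = 0.109 and 0.0982), but both passed without Glut1Tg replicate 3 (-0.53 and -0.54, edgeR adjusted p = 0.0191 and 0.0105). The Ikaros-family members also did not pass, at -0.04 ± 0.17 for Ikzf1, -0.18 ± 0.25 for Ikzf2 and -0.25 ± 0.16 for Ikzf4 (SE; edgeR adjusted p = 0.886, 0.629 and 0.278).

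**Figure D3:**
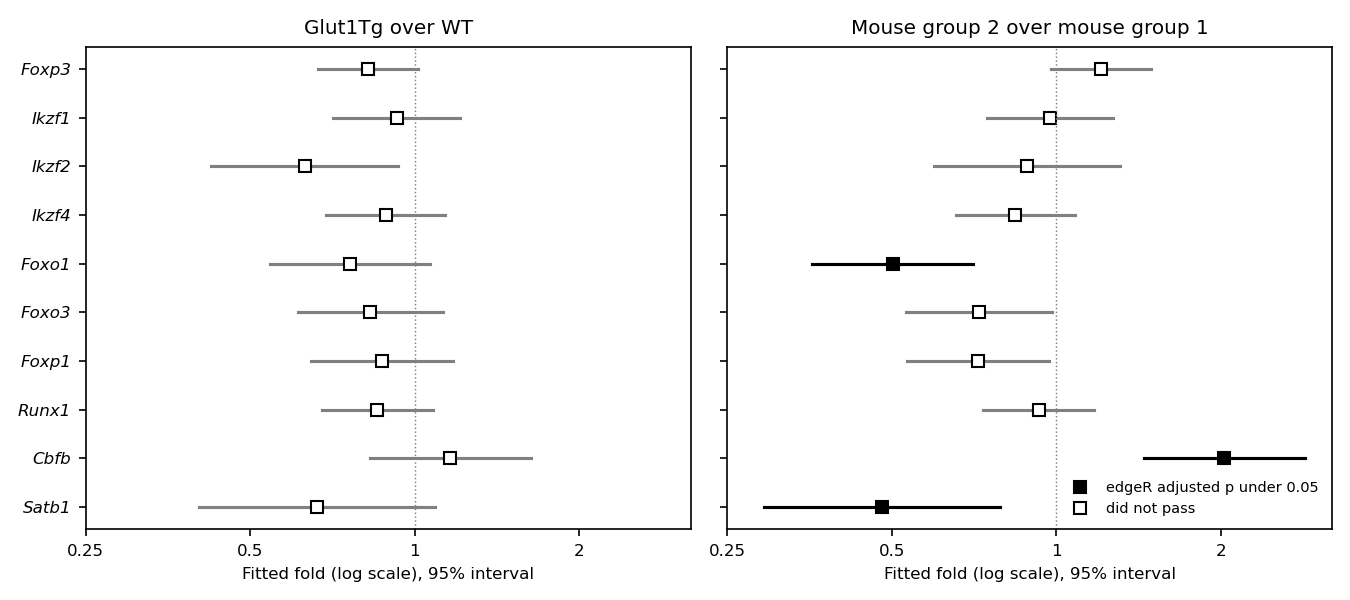
Fitted fold of each factor with its 95% interval (log scale), Glut1Tg over WT in the left panel and mouse group 2 over mouse group 1 in the right panel; filled squares passed at an edgeR adjusted p under 0.05. No factor passed for genotype, and Foxo1 (0.502), Cbfb (2.03) and Satb1 (0.480) passed for mouse group.

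Whether the genotype difference itself differed between mouse groups was tested as an interaction. It passed for 0 of the 10 factors and for 0% of all genes (786 of 14817, 5.3%, had an unadjusted p under 0.05, and DESeq2 called 2). The largest interaction estimate among the factors was that of Satb1, a log2 value of -1.07 ± 0.54 (SE; edgeR adjusted p = 0.741). Mouse group 2 held a single Glut1Tg library, so this term rests on it.

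The profile of each factor over libraries showed 2 patterns. Foxo1, Satb1, Foxo3 and Foxp1 were below their own means in both Glut1Tg replicate 1 and WT replicate 2. So was Runx1, at -0.39 and -0.12 from its mean on the log2 scale. Cbfb stood 0.93 and 0.94 above its mean in the same libraries. Ikzf1, Ikzf2, Foxo3 and Foxp1 were lowest in Glut1Tg replicate 3, as Foxp3 was. Ikzf2 stood at -1.11 from its mean there, the largest departure of any Ikaros-family factor. On the log2 scale the SD over the 9 libraries was 0.69 for Satb1, 0.58 for Cbfb, 0.56 for Foxo1 and 0.51 for Ikzf2, and 0.20 to 0.35 for the other 6.

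**Figure D4:**
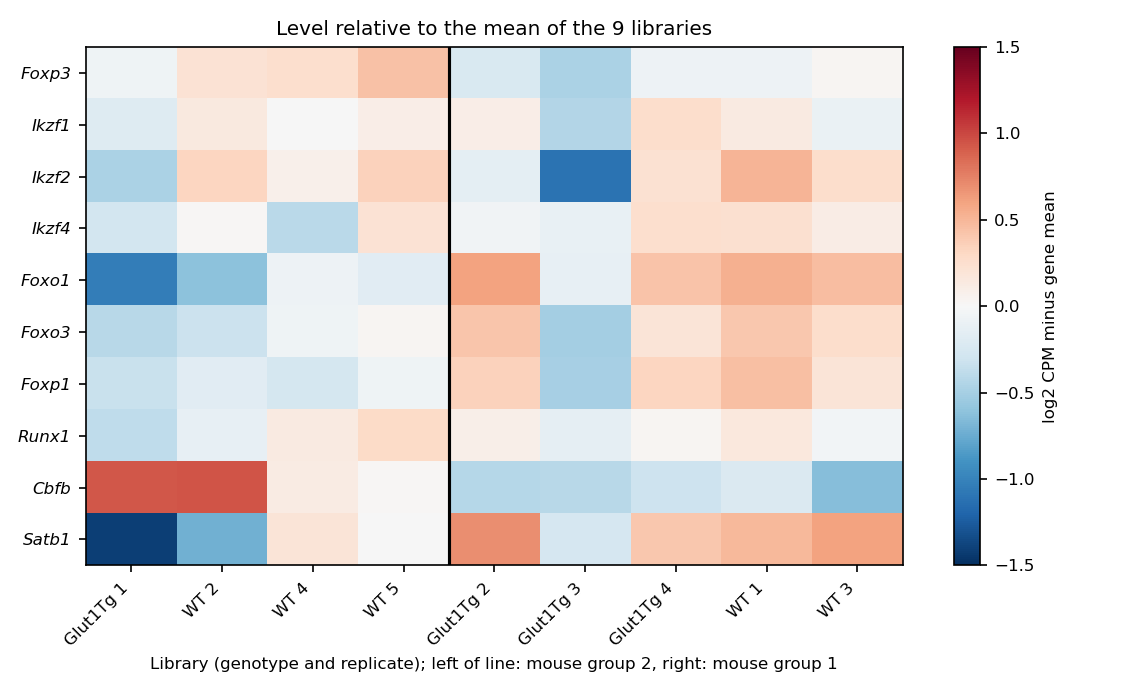
Level of each factor in each library as log2 CPM minus the gene's mean over 9 libraries, with the mouse group 2 libraries left of the line and the mouse group 1 libraries right of it. Foxo1 and Satb1 are lowest and Cbfb is highest in Glut1Tg replicate 1 and WT replicate 2, and Ikzf2 is lowest in Glut1Tg replicate 3.

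Ratios of factors within a library were chosen after their values had been seen and are given with no test. Of the 6 ratios computed between factors, 5 did not overlap between mouse groups, as 21.8% of single genes did not. No such share was computed over ratios of other genes, so this count is a description only. Several of the ratios also share Foxp3 as denominator, and so are not independent. The fitted log2 fold change of Foxp3 itself was 0.27 in mouse group 2 over mouse group 1. Foxo1 over Foxp3 was 0.230 to 0.359 in mouse group 2, against 0.575 to 0.803 in mouse group 1. Satb1 over Foxp3 was 0.152 to 0.370, against 0.448 to 0.735, and Ikzf4 over Foxp3 was 0.243 to 0.333, against 0.402 to 0.492, in the same groups. Cbfb over Runx1 was 1.01 to 3.03 in mouse group 2 and 0.810 to 1.004 in mouse group 1, with the 2 highest ratios in Glut1Tg replicate 1 (3.03) and WT replicate 2 (2.54). Foxo1 over Foxo3 was 2.63 to 4.03 in mouse group 2 and 4.44 to 5.31 in mouse group 1. Ikzf2 over Foxp3 overlapped, at 0.144 to 0.204 in mouse group 2 and 0.122 to 0.288 in mouse group 1.

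**Figure D5:**
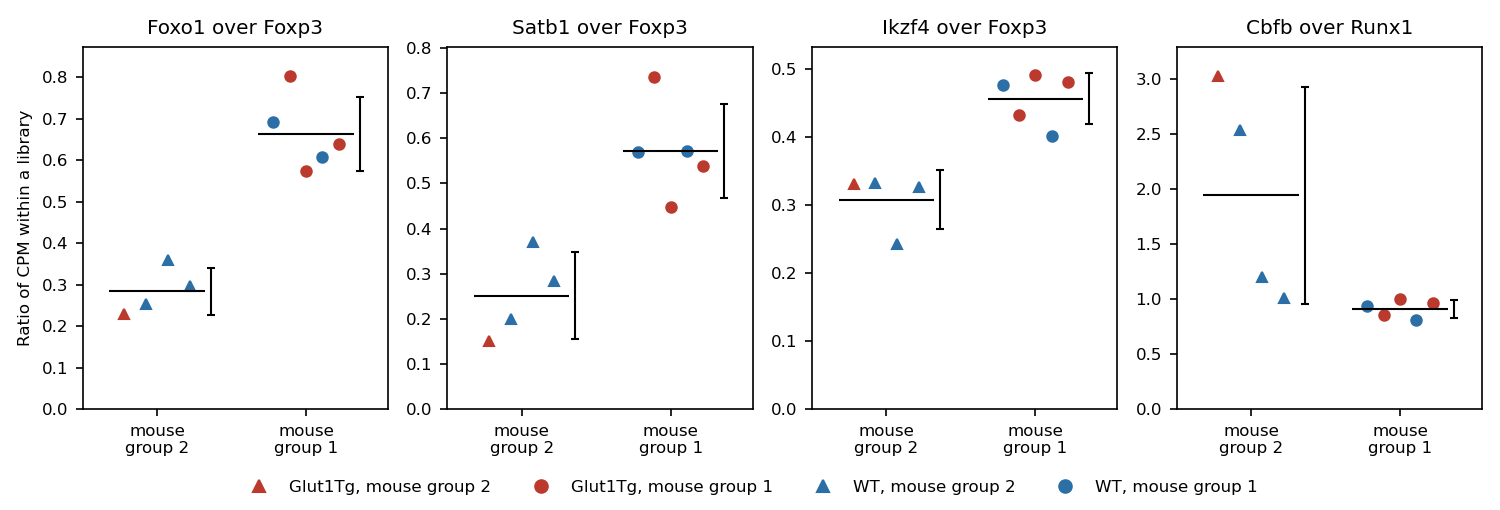
Ratio of 2 factors' CPM within each library, mouse group 2 (triangles, left) and mouse group 1 (circles, right), Glut1Tg red and WT blue; bars are means and whiskers SD. The 3 plotted ratios to Foxp3, of 4 computed, are lower in every mouse group 2 library, and Cbfb over Runx1 is highest in Glut1Tg replicate 1 and WT replicate 2.

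Genes around these factors were described by list, each chosen with earlier results of these data known. For genotype, 0 genes passed in the lists of paralogues (8 tested), Foxp3 protein partners (23), Foxp3 transcription regulators (22), regulatory T cell signature genes (27), Foxp3-repressed genes (11), Foxo targets (17) and proliferation genes (6). Among Foxo targets, genes that Foxo factors activate, 16 of 17 had a negative genotype log2 fold change, as 47.6% of all genes had, with a median of -0.47 against 0.02 over all genes. These signs rest on the mouse group term: without it 6 of 17 were negative, with a median of 0.07 against 0.05 over all genes, and the mean CPM of 11 of 17 was higher in Glut1Tg than in WT. Of them Il7r, the interleukin 7 receptor gene, had the only unadjusted p under 0.05, at -0.94 ± 0.42 (SE; edgeR adjusted p = 0.681). Regulatory T cell signature genes leaned the other way. Of these, 20 of 27 had a positive genotype log2 fold change and 7 a negative one, where 7765 of all 14817 genes were positive. Their median was 0.35 against 0.02 over all genes. Without the mouse group term 21 of 27 were positive, where 8327 of all 14817 genes were, with a median of 0.18 against 0.05 over all genes. These counts do not show how evenly the Glut1Tg libraries contributed. Il2ra, for example, had 2959, 241, 343 and 378 CPM in Glut1Tg replicates 1 to 4, against 320 to 2386 CPM in WT. Lrrc32 had 323, 63.9, 335 and 91.1 CPM, against 69.4 to 306 CPM in WT.

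Between mouse groups 15 of 17 Foxo targets were lower and 0 higher in mouse group 2, where 11% of all genes were lower and 13.1% higher, and their median log2 fold change was -1.35 against -0.01 over all genes. Irs2, an insulin receptor substrate gene, averaged 16.3 ± 2.12 CPM in mouse group 2 and 59.9 ± 13.0 CPM in mouse group 1 (SD, n = 4 and 5; log2 fold change -1.96 ± 0.19, SE; edgeR adjusted p = 0.0012). Rictor, a subunit of mTOR complex 2, averaged 73.8 ± 16.7 CPM in mouse group 2 and 171 ± 38.3 CPM in mouse group 1 (-1.35 ± 0.20, edgeR adjusted p = 0.00348). Gabarapl1, an autophagy gene, and Ccng2, a cyclin of quiescent cells, had log2 fold changes of -0.96 and -1.54 (edgeR adjusted p = 0.0041 and 0.00832). The count was 3 without Glut1Tg replicate 1, 2 without it and WT replicate 2, and 15 without Glut1Tg replicate 3. The 6 proliferation genes had positive log2 fold changes, and 4 of them passed as higher in mouse group 2, against 13.1% of all genes, among them Top2a, the topoisomerase of mitotic chromosomes (2.05 ± 0.42, edgeR adjusted p = 0.0104), and Mki67 (1.22 ± 0.39, edgeR adjusted p = 0.0471). None of these passed without Glut1Tg replicate 1.

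Of 8 paralogues of the factors, Runx3 was higher and Ikzf5 and Foxp2 were lower in mouse group 2, where 13.1% of all genes were higher and 11% lower. Runx3, which also pairs with Cbfb, averaged 156 ± 19.8 CPM in mouse group 2 and 113 ± 18.1 CPM in mouse group 1 (SD; log2 fold change 0.54 ± 0.14, SE; edgeR adjusted p = 0.0236). Ikzf5 averaged 35.5 ± 4.84 CPM and 65.3 ± 11.2 CPM in the same groups (-0.88 ± 0.17, edgeR adjusted p = 0.00932). Foxp2 was barely detected, at 0.345 ± 0.073 CPM and 0.726 ± 0.177 CPM (-1.06 ± 0.34, edgeR adjusted p = 0.0494). Of 23 protein partners of Foxp3, 5 were higher and 2 lower, a share of calls near the 24.1% of all genes. Ezh2, the histone methyltransferase that Foxp3 brings to repressed genes, averaged 166 ± 77.2 CPM in mouse group 2 and 40.0 ± 8.45 CPM in mouse group 1 (2.15 ± 0.31, edgeR adjusted p = 0.00316), and Hdac1 and Hdac2, histone deacetylases, had log2 fold changes of 0.99 and 1.02. Rora, a nuclear receptor that Foxp3 restrains, was lower (-1.87 ± 0.30, edgeR adjusted p = 0.00461).

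Of 22 regulators of Foxp3 transcription, 4 were higher and 5 lower in mouse group 2, where 13.1% of all genes were higher and 11% lower. Dnmt1, the maintenance DNA methyltransferase, averaged 363 ± 244 CPM in mouse group 2 and 97.2 ± 15.2 CPM in mouse group 1 (1.99 ± 0.42, edgeR adjusted p = 0.0115), and Nr4a1, an activator of Foxp3 downstream of the T cell receptor, had a log2 fold change of 1.65 ± 0.31 (edgeR adjusted p = 0.00786). Rel, the NF-kB subunit that acts at an early Foxp3 enhancer, was lower at -1.12 ± 0.24, as was the retinoic acid receptor gene Rara at -0.97 ± 0.21 (edgeR adjusted p = 0.0127 and 0.0126). Of 27 signature genes of regulatory T cells, 5 were higher and 2 lower, a share near the 24.1% of all genes called, so the count says nothing particular of this list. Il2ra averaged 1608 ± 1257 CPM in mouse group 2 and 334 ± 59.1 CPM in mouse group 1 (2.32 ± 0.51, edgeR adjusted p = 0.0138), whereas Ctla4 averaged 368 ± 12.0 CPM and 577 ± 121 CPM (-0.71 ± 0.17, edgeR adjusted p = 0.0197). Of 11 genes that Foxp3 represses, Ifng was higher and Pde3b lower (1.44 ± 0.39 and -0.94 ± 0.26, edgeR adjusted p = 0.0287 for each). Ifng was low in both, at 3.31 ± 1.73 CPM in mouse group 2 and 1.32 ± 0.50 CPM in mouse group 1 (SD). Without Glut1Tg replicate 1, these 4 lists and the paralogues held 1 call higher and 2 lower in all.

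The genes whose profile over the 9 libraries was most like that of Foxp3 were Golga1, Clcn7, Invs, Dynlt1c and Hps5, out of 8648 genes with a mean of at least 10 CPM. Their root mean square differences from the Foxp3 profile were 0.051, 0.073, 0.073, 0.080 and 0.082 on the log2 scale. Golga1 averaged 20.8 ± 2.58 CPM in Glut1Tg and 27.9 ± 3.61 CPM in WT (SD, n = 4 and 5). Among the factors, Ikzf1 and Runx1 had the smallest such differences, 0.23 and 0.24 (ranks 850 and 957), and Foxo1 and Satb1 the largest, 0.65 and 0.72. This measure also grows with a factor's own spread, so it favours factors that vary little. Ikzf1 and Runx1 had log2 SDs of 0.21 and 0.20, against 0.27 for Foxp3 and 0.51 for Ikzf2. Their small differences therefore do not show that they follow Foxp3 more closely than other factors do.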

How the data were processed

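Stranded TruSeq mRNA libraries from RNeasy-extracted RNA were sequenced in paired ends, per the labels' protocols. Per the submitters' processing notes, the authors used bcl2fastq, TopHat2, featureCounts, DESeq2 and mm10; the sources used here give no versions and no strand setting. The deposited counts are whole-number reads per gene, not normalized. The deposited log2 values, for 13700 genes, are relative to WT replicates 1 and 3; how they were made is not stated, and they served 1 alternative only. They can be negative, so no pseudocount was used.

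Counts were fitted in R 4.3.3 with edgeR 4.0.16: filterByExpr by genotype, TMM scaling, and a quasi-likelihood fit on genotype and mouse group, Benjamini-Hochberg adjusted over all 14817 genes at 0.05. SE is the log2 fold change divided by the root of F. CPM use TMM-scaled totals, which were 20881035 to 31196428 before scaling, and log2 fold changes had a median SE of 0.249. The fit was tested on simulated counts of all tested genes. For genotype it recovered 4.83% of simulated 1.5-fold differences, 28.7% of 2-fold and 80% of 4-fold differences. A factor that did not pass may therefore still differ. Every pair of libraries differed by more than sampling noise. DESeq2 1.42.0 and limma 3.58.1 were alternatives, with other scaling, no filter, other terms, fewer libraries and a replicate block.

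The 10 factors and all lists were chosen with earlier results of these data known, and the alternatives for list counts, list medians and exon length were added after the data were seen. The text names all 10 factors and, of each list, up to 4 genes that passed in order of p, or failing that those of highest CPM, except that some are left out; Il7r, Ctbp1, Ets1 and Stat5b were named after their values were seen. Exon lengths come from GENCODE M21 and promoters from RefSeq (GRCm38.p6); likeness to Foxp3 used log2 CPM (prior count 2) and genes with a named symbol.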

Additional observations from a re-analysis of the deposited data

Results flagged for a closer look

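Cbfb stood out in Glut1Tg replicate 1, at 197 CPM, where the next highest Glut1Tg library had 83.9 CPM. The gap was 0.943 of the range of the 4 Glut1Tg libraries, above the critical value of 0.829. Of 40 groups of values examined (each of the 10 factors in each genotype and mouse group), this was the only 1 so marked, and chance marks about 1 group in 20. WT replicate 2, also in mouse group 2, had 199 CPM of Cbfb.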

How the results depend on the processing

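Over 18 alternatives, the genotype log2 fold changes of the 10 factors kept their sign and did not pass, except that Foxo1 was 0.00097 without a mouse group term, and Cbfb -0.073 without that term (-0.0032 to 0.35 leaving out 1 library), -0.0032 without Glut1Tg replicate 1 and -0.0031 without both that library and WT replicate 2. Between mouse groups, Foxo1 and Cbfb kept their calls in 14 of 18 and Satb1 in 8, always in the same direction. Values near 0 changed sign for Ikzf1 (0.0049 without a genotype term, 0.061 in WT only, -0.12 to 0.053 leaving out 1 library, 0.035 without the 2 libraries apart), Ikzf2 (0.052 without a genotype term) and Runx1 (0.060 in WT only, -0.21 to 0.053 leaving out 1 library, 0.17 without the 2 libraries apart).

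Over all genes, 1 was called for genotype: 7 by DESeq2, 2 without a filter on low counts, 0 in mouse group 1 only, 0 without the 2 libraries apart (Glut1Tg replicate 1 and WT replicate 2), and 1 to 2 leaving out 1 library. For mouse group 3576 were called: 642 in WT only, 593 without the 2 libraries apart, and 668 to 4552 leaving out 1 library (668 without Glut1Tg replicate 1, 1916 without WT replicate 1, 2134 without WT replicate 2, 1966 without WT replicate 3). The share called higher was 54.4% as reported and 34.1% without Glut1Tg replicate 1. For the interaction DESeq2 called 2, and leaving out 1 library gave 0 to 123 (3 without Glut1Tg replicate 3, 123 without WT replicate 2); without Glut1Tg replicate 1 it could not be fitted. The Foxp3 permutation difference of -0.38 ranged over -0.45 to -0.30 (exact p of 0.0286 to 0.0571), with 7 of 9 above 0.05. Fewer libraries were fitted in these; other causes were not tested.

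Replicate numbers do not pair the libraries: numbers 1, 2 and 4 fall in different mouse groups, and same-numbered libraries correlated at -0.63, -0.74, 0.19 and -0.19 in their deviations. With replicate number as a block, 0 genes were called for genotype and 0 for mouse group, where Foxo1, Satb1 and Cbfb were at -1.24, -1.38 and 1.03 (edgeR adjusted p = 0.0570, 0.0590 and 0.0684). Precision is limited by 9 libraries, with a single Glut1Tg library in mouse group 2.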

Other observations

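Between genotypes, 1 of 23 Foxp3 protein partners and 2 of 22 Foxp3 transcription regulators did not overlap, against 1.59% of all genes. None of these passed the edgeR test, and they were picked after their values were seen. Ets1, a factor that binds the Foxp3 promoter and enhancer, had 889, 811, 412 and 770 CPM in Glut1Tg replicates 1 to 4, against 960, 1170, 893, 1364 and 1324 CPM in WT replicates 1 to 5 (-0.50 ± 0.21 as log2 fold change and SE, edgeR adjusted p = 0.681). Stat5b, which carries interleukin 2 signals to Foxp3, had 292, 294, 152 and 260 CPM in Glut1Tg, against 295, 324, 302, 350 and 391 CPM in WT (-0.32 ± 0.20, edgeR adjusted p = 0.681). Ctbp1, a corepressor that Ikzf4 joins to Foxp3, had 267, 280, 268 and 266 CPM in Glut1Tg, against 239, 240, 233, 214 and 208 CPM in WT (0.23 ± 0.11, edgeR adjusted p = 0.681). Ets1 and Stat5b were lowest in Glut1Tg replicate 3, the library with the lowest T cell marker sum, while Ctbp1 was level across the 4 Glut1Tg libraries. The genotypes were only just apart for Ets1 (889 against 893 CPM) and Stat5b (294.0 against 294.7 CPM). Overlap takes no account of mouse group, where Ets1 and Stat5b had log2 fold changes of 0.45 and 0.27 (edgeR adjusted p = 0.140 and 0.325).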
